A study of Mus musculus with 23 samples.

Results

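The epiblast pluripotency genes are 9 mouse genes, Pou5f1, Nanog, Sox2, Otx2, Pou3f1, Utf1, Dppa3, Zfp42 and Tdgf1, out of 20780 autosomal protein-coding genes of the GRCm38 annotation. They were chosen by name and by no rule on methylation values, though with earlier results of these data known. A window belonged to a gene when it overlapped the gene record or the 5 kb upstream of it, which gave 50 of 333984 windows in the E6.5 table and 55 of 402812 in the E7.5 table. In each table, 9 of these windows hold a start site and are described apart from the 41 other windows at E6.5 and the 46 at E7.5. The third table splits the E7.5 windows by parental allele.

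DNA methylation was measured by post-bisulphite adaptor tagging (PBAT), a library method in which adaptors are added after bisulphite conversion, in 23 libraries of epiblast (Epi) and extra-embryonic ectoderm (ExE) separated by hand. The ExE is the trophoblast-derived tissue next to the epiblast, and the epiblast gives rise to the embryo itself. At embryonic day (E) 6.5 the libraries came from chromatin input of pooled embryos: B6/CAST with 3 Epi and 2 ExE libraries, CAST/B6 with 3 Epi and 2 ExE, and matDKO/CAST with 2 Epi and 3 ExE, where the mother's strain is written first. At E7.5 they came from single embryos, with 2 libraries each of B6/CAST Epi, B6/CAST ExE, CAST/B6 Epi and CAST/B6 ExE. The B6/CAST and CAST/B6 embryos were wild-type hybrids of C57BL6/Babr and CAST/Ei. The matDKO/CAST embryos had a CAST father and a B6/129 mother homozygous for floxed Dnmt3a and Dnmt3b with Zp3-cre, which is active in growing oocytes, so the egg lacked both enzymes and the embryo carried a deleted maternal and an intact paternal allele of each gene. The 129 share of that mother cannot be told apart from the deletion. Nothing in the labels ties replicates to separate litters, so p-values measure the spread between these libraries.

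Pluripotency is held by transcription factors that switch on their own genes and each other's. Pou5f1 (OCT4), Sox2 and Nanog form the core of this circuit, Zfp42 (REX1) and Dppa3 (STELLA) mark the naive state before implantation, and Otx2, Pou3f1 (OCT6) and Utf1 mark the later, primed state of the epiblast. Tdgf1 (Cripto) is the co-receptor through which epiblast cells respond to Nodal. DNA methylation of CpG sites near a start accompanies stable silencing of several of these genes in other lineages, and Pou5f1 and Nanog are off in trophoblast, whereas Sox2 is also used by trophoblast stem cells.

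Promoters of 7 of the 9 genes were matched by symbol in RefSeq (GRCm38.p6, 250 bases before to 50 after the start). Pou3f1 and Dppa3 had no entry. Otx2 had 4 and Pou5f1 and Nanog 2 each, of which the nearest to the start used here was taken. The 5 printed here lie whole within the start-site windows on both days and show how unlike in CpG content the measured starts are, with the C and G of each CpG in capitals. The Pou5f1 promoter (chr17:35505782-35506081, plus strand) has 11 CpGs, that of Nanog (chr6:122707239-122707538, plus) 4, that of Utf1 (chr7:139943606-139943905, plus) 17, that of Zfp42 (chr8:43306960-43307259, minus) 11 and that of Tdgf1 (chr9:110946109-110946408, minus) 7, against a median of 7 over 32851 promoters.
Pou5f1: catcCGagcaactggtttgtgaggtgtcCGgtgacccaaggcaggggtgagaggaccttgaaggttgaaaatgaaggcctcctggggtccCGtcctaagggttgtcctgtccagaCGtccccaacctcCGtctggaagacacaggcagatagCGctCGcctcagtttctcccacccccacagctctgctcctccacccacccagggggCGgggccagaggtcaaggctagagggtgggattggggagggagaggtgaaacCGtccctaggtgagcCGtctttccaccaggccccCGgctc
Nanog: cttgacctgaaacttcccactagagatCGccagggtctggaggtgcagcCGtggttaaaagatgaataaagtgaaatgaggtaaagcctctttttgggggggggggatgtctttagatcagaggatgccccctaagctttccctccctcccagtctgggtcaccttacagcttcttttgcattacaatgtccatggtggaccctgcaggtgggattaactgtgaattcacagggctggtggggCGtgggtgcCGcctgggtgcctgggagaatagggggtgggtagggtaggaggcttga
Utf1: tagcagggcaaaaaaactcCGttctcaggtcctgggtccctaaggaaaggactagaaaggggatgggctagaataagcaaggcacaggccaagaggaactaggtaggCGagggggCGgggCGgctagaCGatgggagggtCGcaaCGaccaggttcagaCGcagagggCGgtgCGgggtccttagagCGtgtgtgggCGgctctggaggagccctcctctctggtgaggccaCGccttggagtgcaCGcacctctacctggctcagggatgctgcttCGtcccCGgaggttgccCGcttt
Zfp42: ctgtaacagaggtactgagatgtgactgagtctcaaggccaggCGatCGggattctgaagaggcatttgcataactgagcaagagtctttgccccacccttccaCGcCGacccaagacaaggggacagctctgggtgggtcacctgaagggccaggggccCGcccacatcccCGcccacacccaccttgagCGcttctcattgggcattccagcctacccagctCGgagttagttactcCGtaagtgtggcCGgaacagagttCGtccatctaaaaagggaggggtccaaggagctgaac
Tdgf1: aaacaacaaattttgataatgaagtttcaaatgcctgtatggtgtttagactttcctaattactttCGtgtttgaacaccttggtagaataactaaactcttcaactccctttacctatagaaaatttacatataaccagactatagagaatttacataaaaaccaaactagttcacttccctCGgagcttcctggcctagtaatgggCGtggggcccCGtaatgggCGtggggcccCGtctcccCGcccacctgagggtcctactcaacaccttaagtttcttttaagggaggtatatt

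The 7-base sequence TTTGCAT, searched on both strands, occurred in the promoters of Nanog, Sox2 and Zfp42 of the 7 and in 4.63% of all 32851 promoters. The Sox2 promoter has 27 CpGs and that of Otx2 6, and both lie outside the windows that hold the starts used here, as described with those genes. No match in these 300 bases says nothing of the rest of a gene.

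All values are percentages of methylated CpG calls per window, as deposited. Read depth is unknown, because the tables hold no counts, so no value has a counting error of its own. Windows were nominally of 100 CpGs, yet held a median of 59 (E6.5) and 51 (E7.5) reference CpGs, so a start-site window can reach several kb from the start in CpG-poor sequence and stay close to it in CpG islands. The window borders differ between the days. In bulk tissue a value of 40% cannot tell part of the cells methylated in full from partial methylation in every cell. Mean methylation over 167307 windows complete at E6.5 ranged over the libraries from 65.9% to 79.4% in wild-type Epi, 53.5% to 66.2% in wild-type ExE, 53.1% to 54.7% in matDKO/CAST Epi and 39.6% to 41.8% in matDKO/CAST ExE. At E7.5 it was 71.7% to 75.6% in Epi and 56.0% to 59.2% in ExE over 383556 windows. Up to 27.77% of windows had no value in a library at E6.5 (matDKO/CAST Epi replicate 3), against at most 0.1% at E7.5, and the columns of 5 E6.5 libraries (2 of B6/CAST ExE, 2 of matDKO/CAST ExE and 1 of B6/CAST Epi) are marked in their names as imported again.

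**Figure D1:**
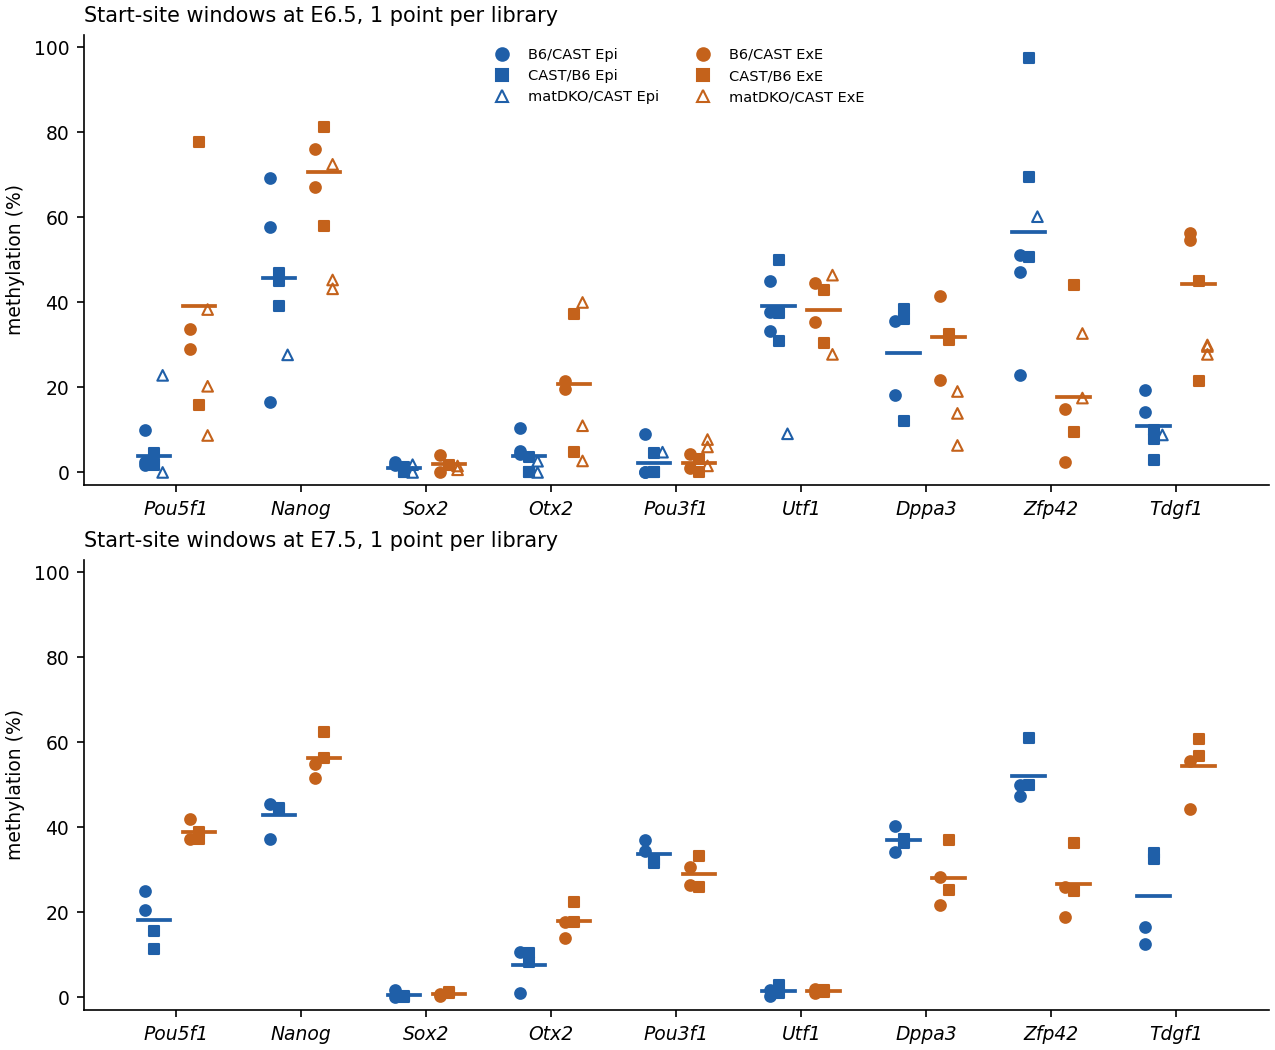
Methylation (%) of the start-site window of each gene at E6.5 (top) and E7.5 (bottom), 1 point per library, with circles for B6/CAST, squares for CAST/B6, open triangles for matDKO/CAST and a line at the wild-type mean. Blue wild-type Epi points of Pou5f1 and Tdgf1 lie below all orange wild-type ExE points on both days, 1 matDKO/CAST Epi point of Pou5f1 (22.8%) lies above the lowest of them, the opposite order appears for Zfp42 at E7.5, and Sox2 is near 0 throughout.

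The first comparison was between the tissues in wild-type embryos. Against a genome in which ExE was mostly the less methylated tissue, the start-site windows of Pou5f1, Nanog and Otx2 were more methylated in ExE than in Epi on both days and that of Tdgf1 at E7.5, whereas that of Zfp42 was less methylated in ExE on both days. The test was limma on all autosomal windows with a value in every library of the fit, fitted with a term for the cross, and p-values were adjusted by Benjamini-Hochberg across the windows. At E6.5, 6 of the 9 start-site windows could be tested, of which 3 were called higher and 1 lower in ExE at an adjusted p under 0.05. Among all 13316 start-site windows tested, 1.42% were called higher and 38% lower. At E7.5 all 9 were tested, of which 4 were called higher and 2 lower, while 2.8% of 20477 start-site windows were called higher and 42.9% lower. Libraries of the tissues lay fully apart, with ExE higher, in 0.751% of all start-site windows at E6.5 and 3.57% at E7.5. They lay apart with ExE lower in 11.2% and 39.5%. The median difference, ExE minus Epi, was 8.40 percentage points over the 6 tested members at E6.5 and 0.371 over the 9 at E7.5, against -9.77 and -4.10 over all start-site windows. Whole-window values were also averaged with weights by the bases within 500 bp on either side of the start, which is no finer than the windows. By that average, 1 of 7 members was called higher and 1 lower at E6.5 (0.939% and 25.2% of all genes), and 4 of 9 higher and 2 lower at E7.5 (3.3% and 53.5%). At E6.5, none of the 4 calls passed without the libraries marked as imported again, in which case 4 ExE libraries became 2.

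Pou5f1 encodes the POU factor without which the inner cell mass is not pluripotent. Its start-site window at E6.5 (chr17:35505630-35507484, positions -388 to 1466 from the start, negative upstream) was methylated at 2.56%, 10.0% and 1.85% in B6/CAST Epi and at 2.08%, 4.54% and 1.79% in CAST/B6 Epi. The ExE values were 29.0% and 33.8% in B6/CAST and 77.8% and 15.9% in CAST/B6. The tissues did not overlap, though the 2 CAST/B6 ExE libraries lay far from each other. The mean rose from 3.81% ± 3.20 (SD, n = 6) in Epi to 39.1% ± 26.9 (n = 4) in ExE, a difference of 35.3 points (SE 9.31, limma adjusted p = 0.0079), and it was 21.4 points without CAST/B6 ExE replicate 1 (over all alternatives tried, limma adjusted p of 0.0025 to 0.07). At E7.5 the window (chr17:35502621-35506193) lay almost whole upstream of the start, at positions -3397 to 175. It was at 20.6%, 25.0%, 11.4% and 15.5% in Epi and at 37.3%, 42.1%, 37.2% and 38.9% in ExE. Again no Epi value reached an ExE value, and the difference was 20.8 points (SE 2.64, limma adjusted p = 0.0002).

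Nanog encodes the homeodomain factor of the naive state, which is lowered at implantation and used again in the posterior epiblast. Its start-site window at E6.5 (chr6:122706408-122710114) was at 69.4%, 16.7% and 57.7% in B6/CAST Epi, at 39.2%, 45% and 46.9% in CAST/B6 Epi, at 67.1% and 76.2% in B6/CAST ExE and at 81.2% and 58.0% in CAST/B6 ExE. The tissues overlapped, since 1 Epi library was above 2 ExE libraries. The difference of 24.9 points (SE 8.77) passed the test (limma adjusted p = 0.029), but not without CAST/B6 Epi replicate 1, B6/CAST ExE replicate 2 or CAST/B6 ExE replicate 1 (over all alternatives, limma adjusted p of 0.0090 to 0.20). At E7.5 the window (chr6:122705143-122708122) was at 37.4%, 45.5%, 44.4% and 44.6% in Epi and at 55%, 51.6%, 62.6% and 56.3% in ExE. These groups did not overlap, and ExE was higher by 13.4 points (SE 2.66, limma adjusted p = 0.0016).

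Tdgf1 had the largest difference of the 9 start-site windows at E7.5. At E6.5 its window (chr9:110946051-110948567) was at 19.4% and 14.3% in the B6/CAST Epi libraries with a value, at 10.0%, 7.75% and 2.86% in CAST/B6 Epi, at 56.4% and 54.6% in B6/CAST ExE and at 21.4% and 45% in CAST/B6 ExE. The tissues did not overlap, with means of 10.9% ± 6.32 (SD, n = 5) and 44.4% ± 16.1 (n = 4). This window was not in the E6.5 fit because B6/CAST Epi replicate 3 had no value. At E7.5 (chr9:110945531-110946830) the Epi libraries stood at 12.6% and 16.7% in B6/CAST and at 34.1% and 32.6% in CAST/B6, and the ExE libraries at 44.3%, 55.7%, 56.9% and 60.7%. All ExE values were above all Epi values, and the difference was 30.4 points (SE 3.32, limma adjusted p = 0.0001).

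Otx2 encodes the homeobox factor that moves naive cells toward the primed state. The start of its gene record lies in a short CpG-rich window shared with the antisense genes Otx2os1 and Gm49154. At E6.5 (chr14:48673673-48674296) that window was at 4.33%, 10.5% and 5.13% in B6/CAST Epi, at 0%, 3.57% and 0% in CAST/B6 Epi, at 21.6% and 19.7% in B6/CAST ExE and at 4.92% and 37.3% in CAST/B6 ExE. A single ExE library fell among the Epi values. The difference of 17.0 points (SE 5.56, limma adjusted p = 0.021) did not pass without CAST/B6 ExE replicate 2, at 10.04 points (over all alternatives, limma adjusted p of 0.0015 to 0.13). At E7.5 (chr14:48673722-48674406) Epi stood at 1.09%, 10.6%, 8.44% and 10.5% and ExE at 13.9%, 17.8%, 17.7% and 22.5%. No values overlapped, and the difference was 10.3 points (SE 2.70, limma adjusted p = 0.0065).

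Zfp42 encodes the zinc finger protein REX1, which is used both as a marker of naive cells and in trophoblast. Its start-site window at E6.5 (chr8:43305466-43307409) ranged more widely than any other member's, with 22.9%, 51.2% and 47.2% in B6/CAST Epi, 97.4%, 69.4% and 50.6% in CAST/B6 Epi, 14.8% and 2.51% in B6/CAST ExE and 44.1% and 9.52% in CAST/B6 ExE. The tissues overlapped in 1 library of each. ExE was lower by 38.7 points (a difference of -38.7, SE 9.72, limma adjusted p = 0.0062). At E7.5 (chr8:43305852-43307721) Epi stood at 50.05%, 47.5%, 50% and 61.1% and ExE at 26.1%, 19.0%, 36.3% and 25.0%, with no overlap and a difference of -25.6 points (SE 3.52, limma adjusted p = 0.0003). Of all start-site windows at E7.5, 39.5% lay apart with ExE lower. Once each library's mean was subtracted, the Zfp42 differences kept their sign at -22.2 points at E6.5 and -9.24 at E7.5 but no longer passed. That setting raises every difference of a day by the same amount, so those of Pou5f1, Nanog, Otx2 and Tdgf1 could only stay positive.

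Dppa3 protects the maternal genome from demethylation in the zygote and is used again in germ cells. Its start-site window was at 18.2%, 35.7%, 38.6%, 36.0% and 12% in the 5 wild-type Epi libraries with a value at E6.5 (chr6:122625473-122627991) and at 21.7%, 41.6%, 32.5% and 31.2% in ExE, and the groups overlapped. At E7.5 (chr6:122626134-122627983) Epi stood at 34.2%, 40.4%, 36.5% and 37.4% and ExE at 21.7%, 28.4%, 25.2% and 37.2%. The difference was -9.0 points (SE 3.35, limma adjusted p = 0.032), with 1 ExE library inside the Epi range. This call was lost without any of 5 of the 8 libraries, at -7.00 to -9.58 points, namely B6/CAST Epi replicate 1 or 2, B6/CAST ExE replicate 1, CAST/B6 Epi replicate 2 and CAST/B6 ExE replicate 1, and the sign turned to 7.33 points with the library mean subtracted.

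Sox2, Pou3f1 and Utf1 showed no tissue difference that passed at the start on the values as deposited. Sox2, the SOX partner of OCT4, was at 0% to 4.00% in all 20 libraries with a value, in a CpG island window of its single exon (chr3:34650305-34650715 at E6.5, chr3:34650372-34650757 at E7.5) that also lies within Sox2ot. The E7.5 difference was 0.371 points (95% interval -3.95 to 4.69). Pou3f1, a POU factor of the primed epiblast and later of the neural plate, was at 0% to 9.12% in the 6 wild-type Epi libraries and at 0% to 4.23% in the 4 of ExE in its E6.5 window (chr4:124656448-124657192), with a difference of -0.161 points (-8.09 to 7.77). Its E7.5 window (chr4:124653784-124656883) lay at positions -3023 to 76, nearly all upstream. There Epi stood at 37.0%, 34.4%, 31.6% and 32.3% and ExE at 30.8%, 26.5%, 25.9% and 33.4%, a difference of -4.69 points (limma adjusted p = 0.11). Utf1, a chromatin protein of pluripotent cells, showed the reverse layout. Its E6.5 window (chr7:139941021-139943930) lay upstream, overlapping Kndc1, and was at 30.9% to 50% in Epi and 30.4% to 44.6% in ExE, with a difference of -0.787 points (-11.5 to 9.95). Its E7.5 window (chr7:139943406-139944170) was centred on the start and stood at 0.394% to 3.01% in Epi and 1.07% to 1.88% in ExE, with a difference of -0.084 points (-4.43 to 4.26). With the library mean subtracted, the differences became 16.2 points for Utf1 at E7.5 and 16.3 (E6.5) and 11.6 (E7.5) for Pou3f1, and that of Sox2 at E7.5 became 16.7. All 4 of these passed (limma adjusted p of 0.00043 to 0.028, and up to 0.99 over all alternatives). That setting adds the same amount to every difference of a day, so for starts near 0% in both tissues, such as those of Sox2 and of Utf1 at E7.5, the gained call follows from the scaling and says nothing of the start itself.

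The days were not tested against each other. The window borders differ for all 9 starts, and day cannot be told apart from preparation (pooled chromatin against single embryos). Side by side, wild-type Epi means at the start were 3.81% at E6.5 and 18.1% at E7.5 for Pou5f1, 45.8% and 42.9% for Nanog, 10.9% and 24% for Tdgf1, 3.93% and 7.65% for Otx2, and 56.5% and 52.2% for Zfp42. The Epi order, from low to high, was Sox2, Pou3f1, Pou5f1, Otx2, Tdgf1, Dppa3, Utf1, Nanog and Zfp42 at E6.5. The ranges of all these neighbours in the order overlapped. At E7.5 the order was Sox2, Utf1, Otx2, Pou5f1, Tdgf1, Pou3f1, Dppa3, Nanog and Zfp42, with Pou3f1 and Utf1 changing place with their window borders. There only Otx2 and Pou5f1 (highest 10.6%, lowest 11.4%) and Nanog and Zfp42 (45.5% and 47.5%) were neighbours whose ranges did not overlap.

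**Figure D2:**
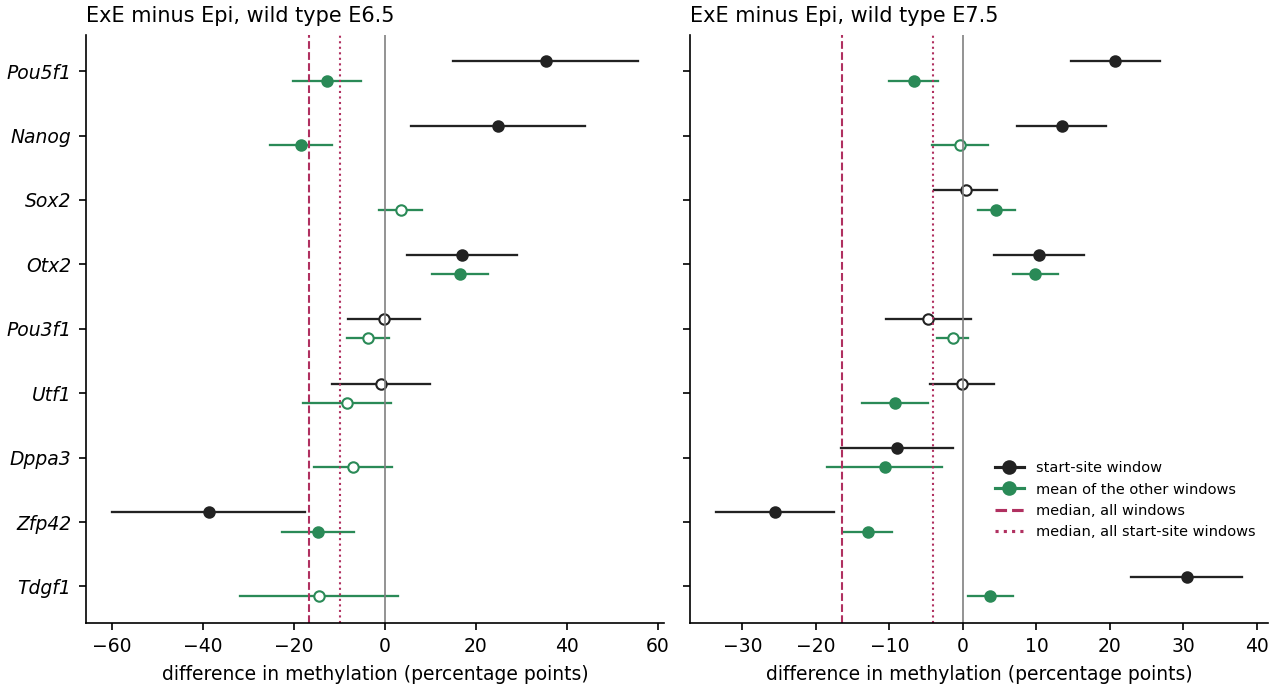
Difference in methylation, ExE minus Epi (percentage points), with 95% intervals in wild-type embryos at E6.5 (left) and E7.5 (right) for the start-site window (black) and the mean of the other windows (green) of each gene, filled where limma's adjusted p is under 0.05; start-site windows of Sox2, Dppa3 and Tdgf1 were not tested at E6.5. The dashed line is the median of all windows and the dotted line that of all start-site windows, and the black points of Pou5f1, Nanog, Otx2 and Tdgf1 lie to the right of 0 and of both lines.

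The other windows, which cover the rest of the gene body and the upstream sequence, were called lower in ExE at a smaller share than windows and genes in general, and some were called higher. The median difference over single other windows was 0.032 points at E6.5 and 0.323 at E7.5. For each protein-coding gene the mean over its other windows was tested with the same design. At E6.5 only windows with a value in every library count, which were 1 of 2 for Nanog, 1 of 3 for Tdgf1, 5 of 8 for Pou3f1, 7 of 9 for Otx2, 4 of 5 for Sox2 and Zfp42 and 3 of 4 for Utf1, so the means of the days cover unlike sequence. At E6.5, 1 member rose and 3 fell in ExE, against 1.09% and 81.6% of 19047 genes, and at E7.5, 3 rose and 4 fell, against 1.41% and 95.5% of 20035 genes. Of single other windows, 5 of 30 rose and 6 fell at E6.5, where 0.663% of all windows rose and 59.6% fell, and 10 of 46 rose and 12 fell at E7.5, where 1.3% rose and 82.9% fell. The median over the members' means was -8.40 points at E6.5 and -1.37 at E7.5, and over all genes -11.6 and -11.6. With each library's mean subtracted the signs of several of these differences turn. The library means put the median over all windows at -16.6 points at E6.5 and -16.5 at E7.5, and members well above 0% are best read against that shift. Windows near 0% in both tissues cannot fall by that much. The other windows of Sox2, for example, averaged 4.28% in Epi and 8.85% in ExE at E7.5. How far this floor lowers the shares above was not tested.

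Otx2 was the 1 member for which the mean of other windows was called higher in ExE on both days. Their mean ranged from 14.5% to 30.8% in the 6 wild-type Epi libraries at E6.5 and from 36.8% to 40.8% in the 4 ExE libraries, a difference of 16.5 points (SE 2.78, limma adjusted p = 0.0005). At E7.5 it was 25.9%, 26.3%, 26.1% and 26.8% in Epi and 35.5%, 36.0%, 33.7% and 39.3% in ExE, a difference of 9.86 points (SE 1.33, limma adjusted p = 0.0001). Of the single windows, picked out here after their values were seen, the one that holds a RefSeq start of Otx2 (of 4 listed, the nearest to the start of the gene record), 6175 bases inside the gene record, was the clearest. At E7.5 (chr14:48666941-48668795) it was at 1.11%, 7.94%, 2.2% and 4.81% in Epi and at 34.7%, 40.8%, 41.8% and 26.4% in ExE, a difference of 31.9 points (SE 3.62, limma adjusted p = 0.0001). At E6.5 (chr14:48666638-48668061) it was at 20.5%, 5.26%, 0.725%, 0%, 2.78% and 0% in Epi and at 44.1%, 28.1%, 26.7% and 38.9% in ExE, a difference of 29.6 points (SE 5.08, limma adjusted p = 0.0011). All ExE values exceeded all Epi values on both days, an order seen in 0.345% of all windows at E6.5 and 1.35% at E7.5. Of the 9 single other windows of Otx2 at E6.5, 7 had values in every library of the fit and 5 of them rose in ExE. At E7.5, 6 of 10 rose, by 16.8 to 31.9 points, and these 6 lay side by side from 3808 to 12283 bases downstream of the record's start. The outermost windows of Otx2 fell at E7.5, by -16.1 and -19.9 points.

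Along Pou5f1 the sign of the difference turned within a few kb. At E7.5 the window just downstream of the start (chr17:35506194-35508538, 176 to 2520 bases) was at 12.3%, 10.4%, 7.77% and 7.41% in Epi and at 26.1%, 25.5%, 27.8% and 28% in ExE, higher in ExE by 17.4 points (SE 2.13, limma adjusted p = 0.0002). The windows to either side of this stretch were lower in ExE. The one at the gene's 3′ part (chr17:35508632-35511872) was at 71.8%, 67.9%, 72.8% and 74.0% in Epi and at 49.8%, 43.4%, 50.5% and 51.5% in ExE (-22.9 points, SE 2.27, limma adjusted p = 9.8e-05), and the far upstream one (chr17:35497366-35502620) differed by -14.7 points (limma adjusted p = 0.0034). The mean of the 3 other windows therefore fell, by -6.72 points at E7.5 (limma adjusted p = 0.0017) and by -12.8 at E6.5 (0.0057), but both signs turned with the library mean subtracted (9.61 and 3.67 points).

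Tdgf1 was also more methylated in ExE just upstream of its start at E7.5, while upstream windows farther out did not pass. The next upstream window at E7.5 (chr9:110946831-110950758, positions -4600 to -673) was at 29.2%, 25.1%, 27.6% and 25.0% in Epi and at 50.9%, 53.5%, 55.5% and 47.7% in ExE, apart by 25.2 points (SE 2.47, limma adjusted p = 9.6e-05). The window beyond it (positions -7652 to -4601) differed by -4.92 points (limma adjusted p = 0.094), and the 1 upstream window tested at E6.5 (positions -7433 to -2410) by -14.5 (limma adjusted p = 0.13). Its 3′ window at E7.5 (chr9:110938364-110943114) fell by -13.9 points (limma adjusted p = 0.0006). The mean of the 4 other windows of Tdgf1 differed by only 3.72 points (limma adjusted p = 0.025), lost without any of 4 libraries (B6/CAST Epi replicate 2, B6/CAST ExE replicate 2, CAST/B6 Epi replicate 1 or CAST/B6 ExE replicate 2), and was -2.68 points in the gene record alone.

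The windows on either side of the Zfp42 start shared its direction. At E7.5 the window 1129 to 3774 bases downstream (chr8:43303206-43305851) was at 95.0%, 76.8%, 78.5% and 83.0% in Epi and at 52.7%, 48.5%, 55.1% and 61.3% in ExE (-28.9 points, SE 4.47, limma adjusted p = 0.0005). The upstream window (chr8:43307722-43312101) was at 84.1%, 82.3%, 85.3% and 92.2% in Epi and at 61.0%, 54.8%, 65.1% and 55.8% in ExE (-26.9 points, SE 2.97, limma adjusted p = 0.0001). The 3 windows farther down the gene differed by -2.61 to -3.15 points and did not pass, although most of the genome was lower in ExE. As a mean, the other windows of Zfp42 fell by -14.7 points at E6.5 and -12.9 at E7.5 (limma adjusted p = 0.0037 and 3.6e-05), and its sign turned to 1.74 and 3.40 points with the library mean subtracted.

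At E7.5 Sox2 was at 8.03% or less in every library in the 5 windows at and around its start. The windows at either end reached higher values, in ExE in every library. Its most distal window at E7.5 (chr3:34643071-34647061) was at 18%, 5.81%, 13.6% and 12.7% in Epi and at 25.6%, 30.4%, 30.2% and 32.0% in ExE, without overlap and 17.0 points higher in ExE (SE 2.94, limma adjusted p = 0.0008). The window over its 3′ end (chr3:34651322-34653153) was at 8.70%, 4.93%, 3.67% and 1.60% in Epi and at 9.67%, 17.9%, 10.9% and 8.36% in ExE, with 1 overlapping value and a difference of 6.98 points (limma adjusted p = 0.026). The 2 windows that hold its RefSeq promoter differed by 0.926 and 0.860 points and did not pass. The mean of the 6 other windows of Sox2 rose by 4.56 points at E7.5 (limma adjusted p = 0.0034), and the E6.5 difference of 3.45 points did not pass (limma adjusted p = 0.15).

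Nanog, Dppa3, Utf1 and Pou3f1 had no other window that rose in ExE. For Nanog the window over the gene body at E6.5 (chr6:122710115-122714741) was at 79.3% to 92.6% in the 6 Epi libraries and at 56.7% to 77.8% in the 4 of ExE (-18.4 points, limma adjusted p = 0.0034 among windows), yet none of its 3 other windows passed at E7.5, when their mean differed by -0.424 points (95% interval -4.25 to 3.41). With the library mean subtracted that difference became 15.9 points. The distal Utf1 window (chr7:139936856-139940203) differed by -30.9 points at E7.5, from 74.5%, 74.1%, 81.5% and 82.5% in Epi to 53.4%, 47.7%, 44.6% and 43.3% in ExE. The mean of the other windows at E7.5 fell by -9.23 points for Utf1 (limma adjusted p = 0.0016) and by -10.7 for Dppa3 (0.014). Without the 5 kb upstream these were 2.14 and -4.36 points and did not pass, and with the library mean subtracted they were 7.10 and 5.67 points. For Pou3f1 the mean of the other windows differed by -3.81 points at E6.5 and -1.37 at E7.5 and passed on neither day, and with the library mean subtracted it was 12.7 and 15 points higher.

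**Figure D3:**
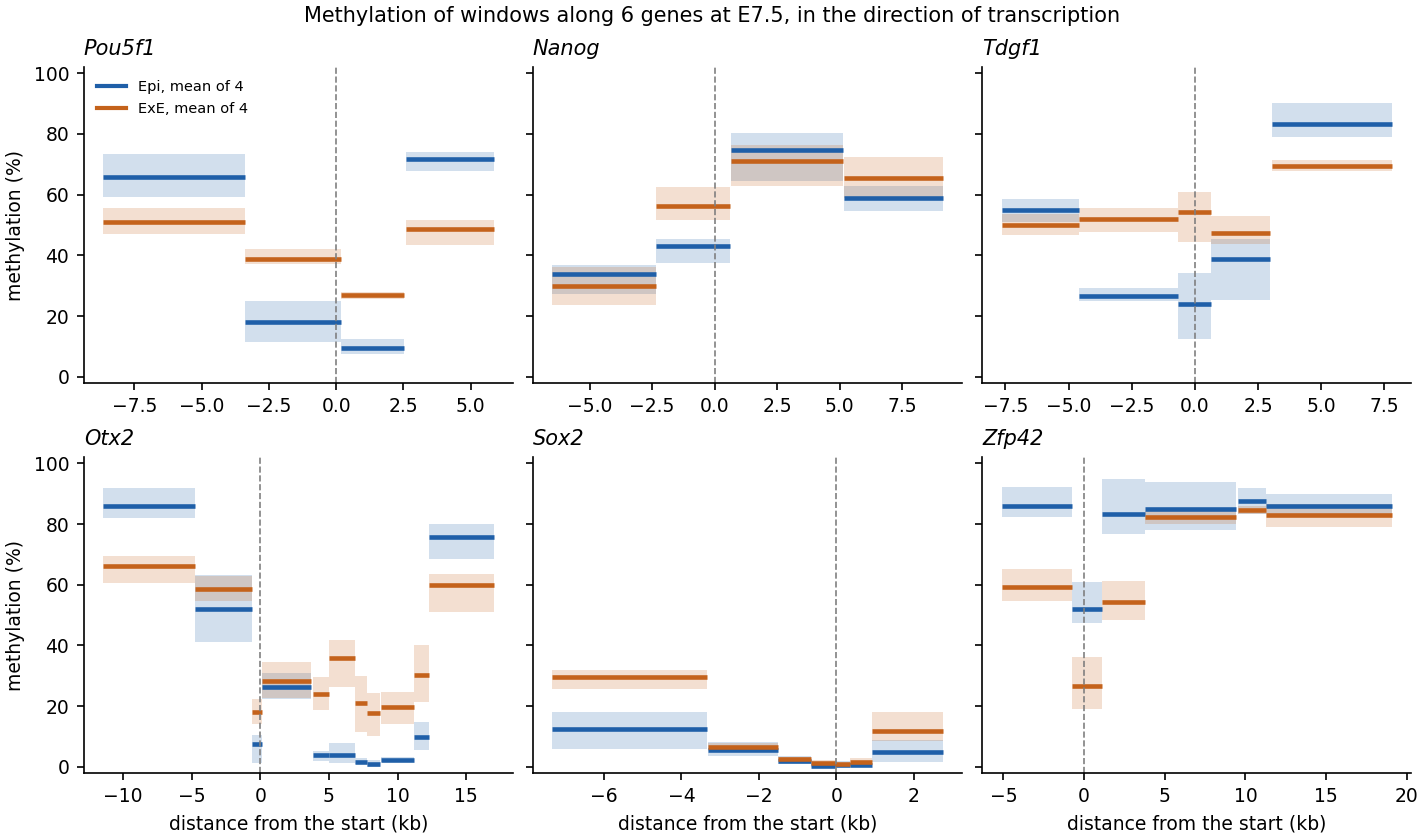
Methylation (%) at E7.5 of every window of 6 genes against distance from the start (kb, positive downstream), with lines at the mean of the 4 Epi (blue) and 4 ExE (orange) libraries over the width of each window and shading from the lowest to the highest library. ExE lies above Epi around the starts of Pou5f1, Nanog and Tdgf1, over the middle of Otx2 and far upstream of Sox2, and below it around the start of Zfp42.

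Other pluripotency genes were counted from lists, by their start-site windows. Of 15 naive pluripotency genes, 11 were tested at E6.5, with 0 higher and 5 lower in ExE and a median difference of -12.8 points, and 14 at E7.5, with 3 higher, 6 lower and a median of -0.670. Over all start-site windows 1.42% were higher and 38% lower at E6.5, and 2.8% and 42.9% at E7.5, so the counts of naive genes that fell are near the share of all genes. Those that rose at E7.5 were Prdm14, a repressor of differentiation (29.0 points), Zscan10 (17.8) and Fgf4, the signal from epiblast to trophoblast (5.49). The largest falls were those of Dppa4 (-27.9), Dppa2 (-25.7) and Tcl1 (-17.9), and Dppa4 and Dppa2 also had the largest falls at E6.5 (-35.4 and -26.3), followed by Esrrb (-17.7). Of 8 primed and general pluripotency genes, 4 were tested at E6.5 and none passed (median 0.369), while at E7.5 Foxd3 rose by 15 points, Sall4 fell by -13.2 and the median was 0.791. With the library mean subtracted the naive list had 5 higher and 0 lower at E6.5 and 8 higher and 2 lower at E7.5. The primed list had 3 and 0 at E6.5 and 7 and 0 at E7.5. That setting raises every difference of a day by the same amount, and its share over all start-site windows was not counted. These counts under it therefore cannot be read as a trait of the lists. The 5 naive genes lower at E6.5 became 3 without B6/CAST ExE replicate 1, without replicate 2, on the logit scale or with no cross term, 2 with the replicate block or with 20 points asked for, and 1 without the libraries marked as imported again. The 3 naive genes higher at E7.5 became 1 with 20 points asked for, and the 6 lower became 2.

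Expression is not measured here, so the dissection was described only by methylation of marker genes. Of 9 trophoblast markers at E7.5, Elf5 (-22.0 points) and Plet1 (-35.4) were lower and Ascl2 (11.8) was higher in ExE, with a median of 0.575, and at E6.5 Plet1 alone of 5 tested passed (-42.5). Of 5 visceral endoderm markers, 4 were lower in ExE at E7.5, with a median of -9.31, and 1 of 4 tested at E6.5 (Ttr, -24.1). These counts stand beside the same 42.9% lower and 2.8% higher over all start-site windows at E7.5 and 38% and 1.42% at E6.5. The visceral endoderm count at E7.5 fell from 4 to 2 without B6/CAST Epi replicate 1, B6/CAST ExE replicate 2, CAST/B6 Epi replicate 1 or CAST/B6 ExE replicate 1, and to 0 where a difference of at least 20 points was asked for. With the library mean subtracted, 7 trophoblast markers were higher and 1 lower at E7.5 and 3 and 1 at E6.5, and 2 visceral endoderm markers were higher and 0 lower at E7.5 and 0 and 0 at E6.5. The counts turn with this scaling, which raises every difference of a day alike and has no share over all start-site windows beside it. Whether another tissue was carried along in either dissection was not tested.

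The matDKO/CAST comparison asks how these genes were methylated in embryos of mothers whose oocytes lacked both de novo methyltransferases. No start-site window of the members passed against B6/CAST, which has the same father's strain. Of the 9, only Pou5f1 and Otx2 could be tested in Epi and 6 in ExE. By whole-window values weighted by the bases within 500 bp on either side of the start, 0 of 6 members passed in Epi, where 0.134% of genes were higher and 2.35% lower. Across all start-site windows, 0.119% were called higher and 11.5% lower of 10956 in Epi, and in ExE 0% and 0% of 14336 (5 and 1938 at an unadjusted p under 0.05 in limma). The median difference over all start-site windows was -7.47 points in Epi and -5.56 in ExE.

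In Epi the Pou5f1 start-site window was at 22.8% and 0% in the 2 matDKO/CAST libraries, next to 1.85% to 10.0% in B6/CAST, a difference of 6.61 points (95% interval -9.78 to 23). That of Otx2 was at 2.63% and 0%, a difference of -5.34 points (-16.8 to 6.15). Single values were present for Nanog (27.7%), Zfp42 (60.2%), Tdgf1 (8.82%), Utf1 (9.09%) and Pou3f1 (4.76%), 2 for Sox2 (0% and 1.82%) and none for Dppa3. In ExE the Tdgf1 window was at 30%, 29.6% and 27.8%, below both B6/CAST libraries (56.4% and 54.6%) but not below both of CAST/B6 (21.4% and 45%), and the difference of -26.4 points had an unadjusted p of 0.0081 and a limma adjusted p of 0.13. That of Dppa3 was at 13.9%, 19.0% and 6.35%, below all 4 wild-type ExE libraries (21.7% to 41.6%), with a difference of -18.6 points (limma adjusted p = 0.18). It passed only when both wild-type crosses formed the reference (-18.7 points, with limma adjusted p of 0.041 to 0.94 over all alternatives). Nanog stood at 43.2%, 45.3% and 72.5% (-18.0 points, limma adjusted p = 0.29), Pou5f1 at 20.3%, 38.3% and 8.70% (-8.95, 0.72), Otx2 at 2.70%, 11.0% and 40.0% (-2.75, 0.90) and Pou3f1 at 7.74%, 1.54% and 6.0% (2.47, 0.79).

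The other windows of some members were lower in matDKO/CAST. In Epi, 3 of 27 single other windows fell, where 23.4% of all windows fell and 0.0291% rose. They were the window at the 3′ end of Pou5f1 (chr17:35510355-35515772, -19.2 points), the distal window of Utf1 (chr7:139937745-139940993, -22.7) and the window downstream of the Zfp42 start (chr8:43300746-43305420, -31.6), with limma adjusted p of 0.030 to 0.041. In ExE, 0 of 30 passed, as did 0 of 254322 windows in all, and 7 of the 30 had an unadjusted p under 0.05 in limma, as did 75 higher and 65471 lower of all windows. For a gene mean only windows complete in the fit count. In Epi the value for Dppa3 rests on 1 of its 2 other windows (chr6:122617954-122625472), which did not pass among the 27 single windows (limma adjusted p = 0.063) but passed in the fit over gene means. It went from 73.9%, 83.9% and 81.2% in B6/CAST to 69.3% and 46.2% (-22.0 points, SE 6.50, limma adjusted p = 0.017). That of Zfp42, over 3 of 5 windows, fell from 71.7%, 70.9% and 88.9% to 54.6% and 58.8% (-20.5 points, SE 6.02, limma adjusted p = 0.017). These are 2 calls over 9 members, where 70.3% of 18276 genes fell and 0.0492% rose, with a median over all genes of -14.9 points and over the members of -9.33. The Dppa3 call was lost without matDKO/CAST Epi replicate 3 (-10.4 points) and the Zfp42 call without replicate 1 (-18.4). In ExE, 4 of 9 members fell, where 57.8% of 19042 genes fell and 0.0105% rose. Their means covered 3 of 5 windows of Zfp42, 2 of 3 of Tdgf1, 3 of 3 of Pou5f1 and 5 of 9 of Otx2. Zfp42 went from 65.9% and 60.5% in B6/CAST to 47.9%, 46.1% and 37.8% (-19.3 points), Tdgf1 from 56.1% and 63.9% to 47.7%, 34.1% and 45.8% (-17.5), Pou5f1 from 41.7% and 46.5% to 26.9%, 31.5% and 32.2% (-13.9) and Otx2 from 36.3% and 35.1% to 19.6%, 20.9% and 25.2% (-13.9), with limma adjusted p of 0.014 to 0.021. Each of these 4 ExE groups lay wholly below B6/CAST, but the share of all genes with that order was not counted. All 4 calls were lost without B6/CAST ExE replicate 1 or without replicate 2. None of these 6 calls passed with the library mean subtracted, where the differences were -1.42 to -6.86 points.

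**Figure D4:**
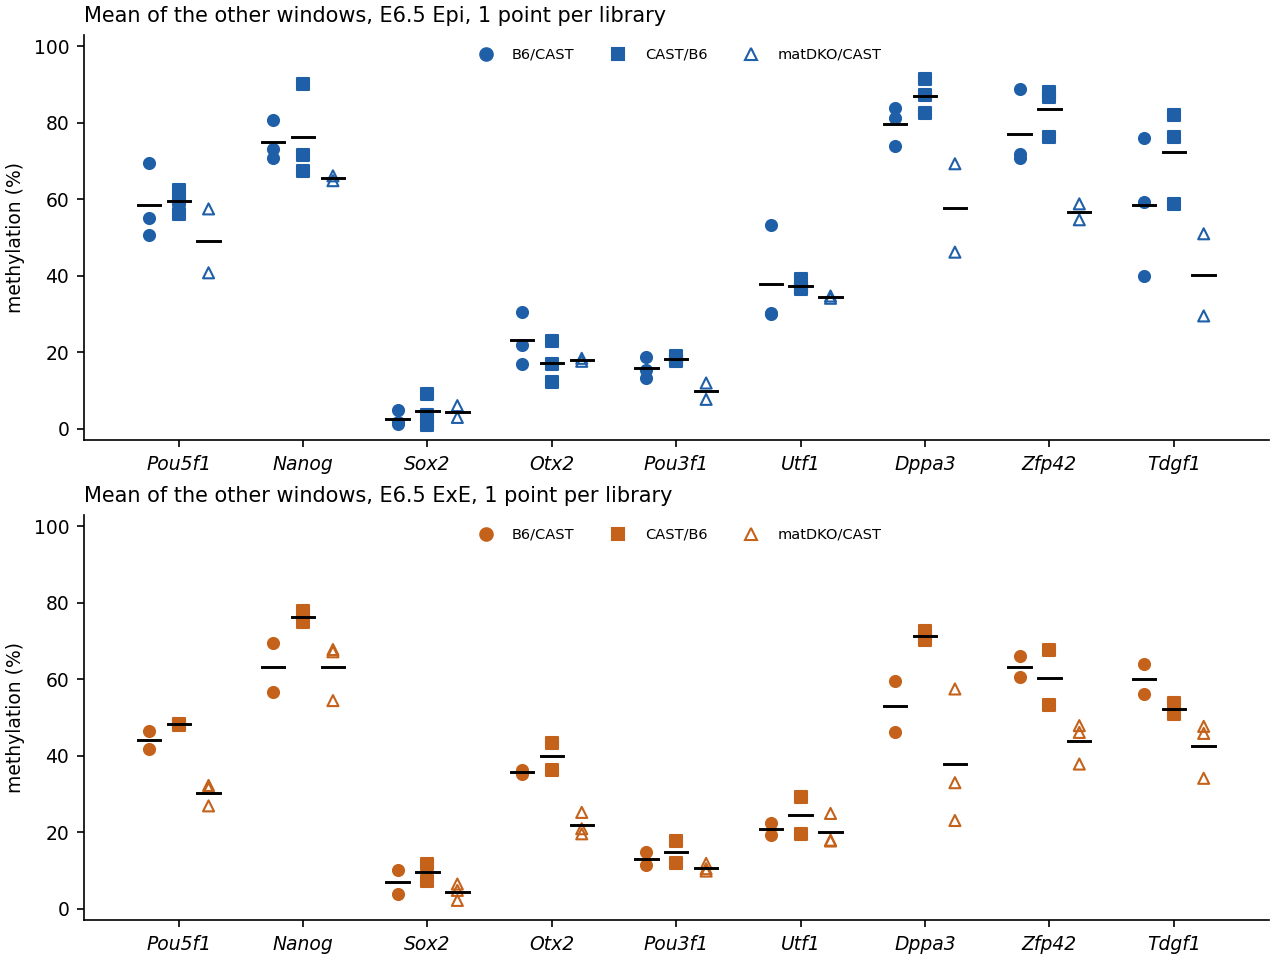
Mean methylation (%) of the other windows of each gene at E6.5 in Epi (top) and ExE (bottom), 1 point per library for B6/CAST (circles), CAST/B6 (squares) and matDKO/CAST (open triangles), with a line at each group's mean, over windows complete in that tissue. In ExE the matDKO/CAST points of Pou5f1, Otx2, Zfp42 and Tdgf1 lie below all wild-type points, and in Epi those of Zfp42, Dppa3, Nanog and Pou3f1 do, of which the differences from B6/CAST of Nanog (-9.41) and Pou3f1 (-5.96) did not pass. The share of all genes with these orders was not counted.

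Between the tissues of matDKO/CAST itself no start-site window of the members passed. Only Pou5f1 (11.0 points, 95% interval -17.4 to 39.4) and Otx2 (16.6 points, -12.8 to 46.0) were tested, and 0% of all 11861 start-site windows were called in either direction (55 higher and 1762 lower at an unadjusted p under 0.05 in limma). The values for Tdgf1, 8.82% in 1 Epi library and 27.8% to 30% in 3 of ExE, and for Zfp42, 60.2% in 1 Epi library and 17.5% and 32.7% in 2 of ExE, are given without a test. The window of that RefSeq start of Otx2 was at 0% and 0% in matDKO/CAST Epi and at 31.6%, 23.7% and 28.6% in ExE, 27.9 points apart (limma adjusted p = 0.093). The mean of other windows fell for Zfp42 (-21.7 points, limma adjusted p = 0.031) and passed for no other member, where 22.7% of 18310 genes fell and 0.0874% rose. The Zfp42 mean rests on 2 of 5 windows, neither of which passed singly (-23.2 and -20.2 points, limma adjusted p of 0.29 and 0.13). Its call was lost without any of the 5 libraries (over all alternatives, limma adjusted p up to 0.28). Pou5f1 (-18.9 points, limma adjusted p = 0.05001) and Dppa3 (-15.2, 0.17) passed without matDKO/CAST Epi replicate 3 (-27.3 and -26.7 points, limma adjusted p of 0.041 and 0.045), and in no other alternative run.

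The reciprocal crosses did not differ at any member by a call. For start-site windows in the 4 comparisons of CAST/B6 with B6/CAST, 0% of all windows were called, and of the mean of other windows only ExE at E6.5 had calls (20.7% of 19042 genes higher and 0.0158% lower in CAST/B6), none of them a member. At an unadjusted p under 0.05, 2 members' start-site windows differed in E7.5 Epi, 1 in E6.5 ExE and 0 in the other two. At that unadjusted threshold limma had 655 start-site windows of all genes higher and 255 lower in CAST/B6 of 20477 in E7.5 Epi, 279 and 316 of 20477 in E7.5 ExE, 2190 and 55 of 14336 in E6.5 ExE, and 1106 and 27 of 10956 in E6.5 Epi. Tdgf1 was at 34.1% and 32.6% in CAST/B6 Epi and at 12.6% and 16.7% in B6/CAST Epi at E7.5 (18.7 points, unadjusted p = 0.0028, limma adjusted p = 0.85). In E6.5 ExE the sign was the other one, at 21.4% and 45% against 56.4% and 54.6% (-22.3 points, unadjusted p = 0.027, limma adjusted p = 0.17). Pou5f1 was at 11.4% and 15.5% in CAST/B6 Epi and at 20.6% and 25.0% in B6/CAST Epi at E7.5 (-9.31 points, unadjusted p = 0.029, limma adjusted p = 0.85).

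Some tissue differences at the start-site windows were seen within each cross. At E7.5 the lower ExE library was above the higher Epi library of the same cross for Pou5f1, Nanog, Otx2 and Tdgf1 in both B6/CAST and CAST/B6, and below it for Zfp42. Over 20477 start-site windows at E7.5, 4.82% had ExE higher in this way in both crosses and 43.7% had it lower, so the Zfp42 order is a common one. At E6.5 this order held in both crosses for Pou5f1, Tdgf1, Otx2 and Zfp42, and for Nanog in CAST/B6 but not in B6/CAST, where over 13316 windows with a value in every library 1.28% had ExE higher in both crosses and 26.6% lower (Tdgf1 lacked a value in 1 Epi library).

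Allelic values were available at E7.5. Of the 9 start-site windows, 7 in Epi and 8 in ExE had values for both alleles in all 4 libraries. No member passed for the maternal minus paternal difference, tested in limma across the reciprocal crosses, where 0.00942% of 10612 start-site windows in Epi and 0.0327% of 15281 in ExE were called, all with the maternal allele higher. At an unadjusted p under 0.05 limma gave 0 members in Epi and 1 in ExE, and of all start-site windows 276 with the maternal and 308 with the paternal allele higher in Epi and 333 and 391 in ExE. The member was Zfp42, whose maternal allele was at 52.3%, 28.6%, 37.0% and 35.3% and whose paternal allele was at 17.3%, 14.5%, 36.9% and 13.6% in the 2 B6/CAST and 2 CAST/B6 ExE libraries. The maternal value was the higher in 4 of 4 libraries, by 0.128 to 34.98 points, with a mean of 17.7 (95% interval 3.70 to 31.8, unadjusted p = 0.021, limma adjusted p = 0.78). Over all windows, 6.32% had the maternal allele higher in all 4 ExE libraries. In Epi the Zfp42 difference was 3.46 points (-9.17 to 16.1).

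Otx2 was the member whose maternal allele was the higher in 4 of 4 Epi libraries, by 2.28, 5.86, 2.31 and 6.18 points (mean 4.16, 95% interval -5.65 to 14.0, limma adjusted p = 0.95), where 5.75% of all windows had that order. For the core genes the parental difference was -0.349 points in Epi and -1.87 in ExE for Pou5f1 and -9.70 and 7.19 for Nanog, none of which passed. Between strains, B6 minus CAST, none passed either, and 0% of start-site windows were called in both tissues (490 and 665 higher on B6, 302 and 378 lower, at an unadjusted p under 0.05 in limma). The B6 allele of Dppa3 was the higher in 4 of 4 ExE libraries, by 6.58, 7.37, 8.21 and 26.1 points (mean 12.1, unadjusted p = 0.039, limma adjusted p = 0.56). That of Tdgf1 was the higher in 4 of 4 ExE libraries by 2.45 to 13.9 points (limma adjusted p = 0.65), and Zfp42 in Epi differed by 13.3 points (unadjusted p = 0.042, limma adjusted p = 0.75). The share of all windows with the B6 allele higher in 4 of 4 ExE libraries was not counted.

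Of the 40 other windows in the allelic table, 20 in Epi and 34 in ExE had both alleles in 4 libraries, and none of them passed, where 0.00629% of all windows in Epi and 0.00503% in ExE were called higher on the maternal allele. The maternal allele was the higher in 4 of 4 libraries in 0 windows in Epi and 2 in ExE, where 5.75% and 6.32% of all windows were so, and the paternal allele in 1 and 3, where 6% and 6.27% were. The largest difference was in ExE in an Otx2 window 11212 to 12283 bases downstream of the start of the gene record (chr14:48661536-48662607), singled out after its values were seen. Its maternal allele was at 44.8%, 39.5%, 39.9% and 56.5% and its paternal allele at 14.9%, 19.5%, 16.2% and 36.1%, a mean difference of 23.5 points (20.03 to 29.9 over the libraries, unadjusted p = 0.0012, limma adjusted p = 0.78). The distal upstream window of Pou5f1 (chr17:35497366-35502620) was the other in which the maternal allele was always the higher in ExE, by 4.76 to 23.6 points (mean 13.3). The paternal allele was the higher in all 4 ExE libraries in the distal upstream windows of Nanog (mean -3.17) and Tdgf1 (-9.96) and the most 3′ window of Zfp42 (-4.15), and in Epi in that Nanog window (-8.11). By the mean of other windows, the unadjusted p was under 0.05 for the strain difference of Otx2 in ExE (-6.63 points, unadjusted p = 0.0063, limma adjusted p = 0.36) and of Pou3f1 in Epi (6.22, 0.019 and 0.57), and for the parental difference of Zfp42 in Epi (-6.77, 0.044 and 0.90). In limma the same threshold was met in the same direction by 704 of 18674 gene means for the first, 865 of 17470 for the second and 503 of 17470 for the third.

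**Figure D5:**
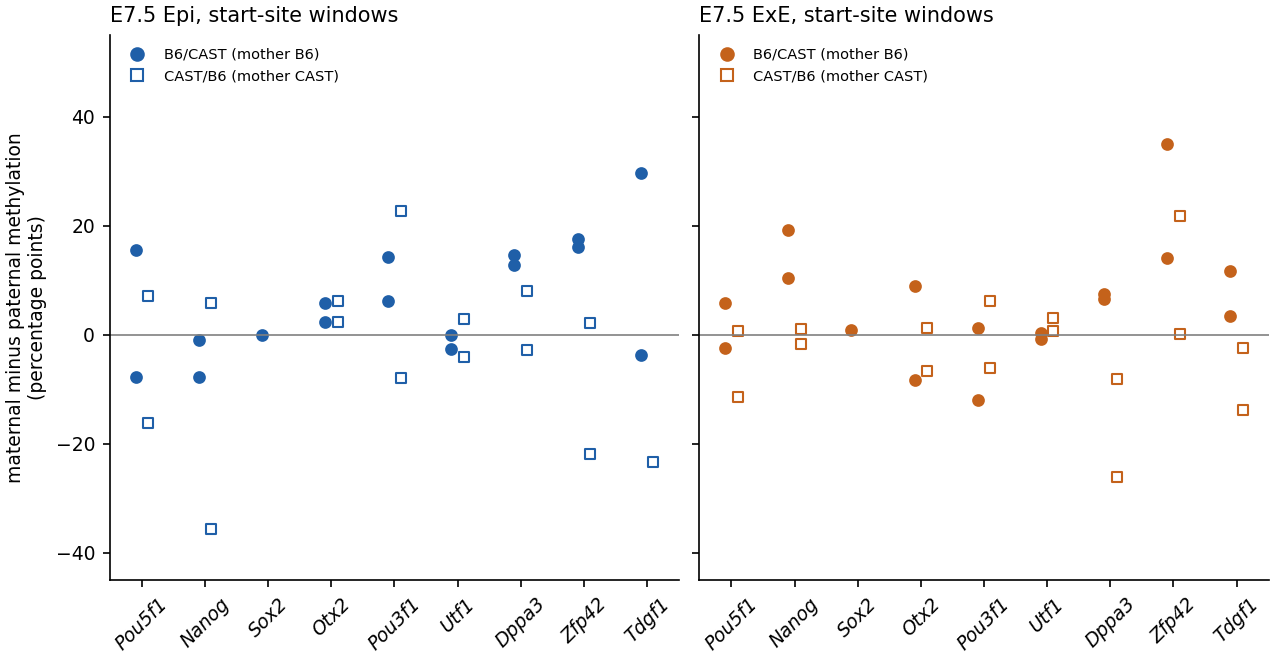
Maternal minus paternal methylation (percentage points) of the start-site window of each gene at E7.5 in Epi (left) and ExE (right), 1 point per library with values for both alleles, filled for B6/CAST and open for CAST/B6. The points of most genes lie on both sides of 0, and all 4 ExE points of Zfp42 lie at or above it (0.128 to 34.98).

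To see which other genes had a similar course over all libraries, start-site windows complete in every library were ranked by the mean absolute difference from each member whose range was 20 points or more. Of 8674 or 8675 genes searched, the nearest to Pou5f1 over 23 libraries were Dmtn (6.18 points), Hoxd12 (9.23) and Jph4 (10.0), and the nearest to Otx2 were Asic4 (5.19), Nkx2-1 (5.29) and Egr4 (5.42). Nanog was nearest to Dmpk (9.11), Tnfrsf25 (10.0) and Qprt (10.2) over 22 libraries, Zfp42 to Vmn2r57 (9.02), Tfr2 (10.3) and Src (10.4) over 21, and Tdgf1 to Tbx5 (10.9), Mroh6 (11.2) and Sgk1 (11.3) over 21. Pou3f1 was nearest to Ramp2 (1.89), Luc7l (2.61) and Hexa (2.74), Utf1 to Abcg4 (5.79), Kbtbd6 (6.003) and Shisa8 (6.41), and Dppa3 to Cog6 (6.25), Tldc1 (6.30) and Gramd4 (6.38). The nearest genes of Nanog, Zfp42 and Tdgf1 were 9.02 points or more away, farther than the nearest gene of any other ranked member. No cut for a close match was set. Sox2 ranged over 4.00 points and was not ranked.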

How the data were processed

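PBAT libraries were made from 10% chromatin inputs of pooled E6.5 embryos and from single E7.5 embryos; the labels state that bisulphite conversion of the E7.5 samples was repeated after poor initial conversion. Per the labels, the authors trimmed reads with Trim Galore 0.4.4 and aligned them with Bismark 0.20.0 (E6.5; version not given for E7.5) to GRCm38, and they deposited the percent methylation of windows of nominally 100 CpGs, without counts or coverage. How a window's percent was averaged is not given in the sources used here. A column of B6/CAST Epi at E6.5 is numbered 2 where the labels number the libraries 1, 3 and 4, so it was matched to its group only.

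The percentages were used as deposited. Windows were assigned to genes with GENCODE vM21. The start was that of the principal transcript, or of the gene record where none is tagged (Nanog, Otx2). Tests used limma 3.58.1 in R 4.3.3 with default settings, Benjamini-Hochberg adjustment and a threshold of 0.05, on every autosomal window, or gene mean of other windows, with a value in all libraries of the fit; the wild-type groups and matDKO/CAST shared an estimate of spread within a tissue. The code was tested on simulated data. Means and figures used Python 3.11.15, pandas 2.3.3 and matplotlib 3.10.9. The members, lists and tests were chosen with earlier results of these data known. All 9 members are named, with their start-site windows and the mean of their other windows, and of the list genes those with the 3 largest called tissue differences in each direction. Alternatives covered the scale, the fit, the definition of windows and each library left out. Tests between days were not run, because only 7 autosomal windows have the same coordinates on both days.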

Additional observations from a re-analysis of the deposited data

Results flagged for a closer look

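The Pou5f1 start-site window stood at 10.0% in B6/CAST Epi replicate 3 at E6.5, apart from the other 5 wild-type Epi libraries (1.79% to 4.54%). That library had no value in 10.16% of windows, against at most 3.4% in the other wild-type Epi libraries. Without it the tissue difference of Pou5f1 was 37.3 points. The Nanog start-site window stood at 37.4% in B6/CAST Epi replicate 1 at E7.5, below the other 3 Epi libraries (44.4% to 45.5%). Of 87 sets of 4 to 10 libraries examined, 2 held such a library, and chance alone gives about 1 in 20. For windows with both alleles in every E7.5 library, the maternal minus paternal and B6 minus CAST differences were compared between Epi and ExE. Among 54 pairs compared, none was positive in every library of a tissue and negative in every library of the other.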

How the results depend on the processing

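Depth is unknown, and missing values kept 3 start-site windows out of the E6.5 tissue fit and 7 out of the matDKO/CAST Epi fit. Of 189 counts under other settings, 171 stayed within 1.5 times the main count. Start-site windows called between tissues at E6.5 (4) became 1 with the replicate number as a block (Zfp42), 2 with windows within 500 bp of the start, and 0 without the libraries marked as imported again (both of the latter settings were chosen after seeing the data). For the mean of other windows at E6.5 (4 called) they became 0 when a difference of at least 20 points was asked for and 7 when windows were weighted by length. At E7.5, asking for 20 points left 3 of 6 start-site windows and 0 of 7 gene means, and leaving out the upstream 5 kb left 3 gene means. The matDKO/CAST tissue call (1) became 0 on the logit scale, in the gene record alone, with the library mean subtracted and with the replicate block. The Epi calls against B6/CAST (2) became 0 with the library mean subtracted and with the replicate block, and 4 with both crosses as wild type. In ExE, both crosses as wild type gave 1 start-site call where there had been 0, and the 4 gene means became 0 with 20 points asked for and with the library mean subtracted. Leaving out 1 library at a time gave 3 to 4 start-site calls and 4 to 5 gene means at E6.5, 5 to 7 and 6 to 7 at E7.5, 0 to 2 gene means between matDKO/CAST tissues, 1 to 3 in matDKO/CAST Epi and 0 to 5 in ExE, and 0 in every other comparison.

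Subtracting the library mean moves the tissue differences of all members on a day up by the same amount, and it turned the sign of the E6.5 difference for the starts of Pou3f1 (16.3 points) and Utf1 (15.7) and the other windows of Pou5f1 (3.67), Pou3f1 (12.7), Zfp42 (1.74), Utf1 (8.09), Dppa3 (9.41) and Tdgf1 (2.03), and at E7.5 for the starts of Pou3f1 (11.6), Utf1 (16.2) and Dppa3 (7.33) and the other windows of Pou5f1 (9.61), Nanog (15.9), Pou3f1 (15), Utf1 (7.10), Dppa3 (5.67) and Zfp42 (3.40). The gene record without 5 kb upstream turned Utf1 (2.14) and Tdgf1 (-2.68) at E7.5. The cause was not tested, beyond the lower library means of ExE. Correlations between the deviations of same-numbered libraries were 0.051 at most, so the numbers were not taken to pair them, although at E7.5 the same-numbered Epi and ExE libraries correlated positively in both crosses (0.051 and 0.049) and the number with the higher library mean in Epi also had it in ExE. The replicate block changed no start-site call at E7.5. No coverage minimum could be tried, since the tables hold no coverage. Beyond the average within 500 bp of the start, no second window that holds the start could be tried, since the windows do not overlap.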
